A study of Homo sapiens with 44 samples.

Results

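Oncostatin M (OSM) was set directly against IL-6 in Ccd18-Co, a fibroblast line from human colon, to ask where chromatin was more open with one of these related cytokines than with the other. Chromatin accessibility was measured by ATAC-seq, in which a transposase cuts open DNA and inserts sequencing adaptors. The comparison used 7 of the 44 libraries of the series, namely OSM replicates 1 to 4 and IL-6 replicates 1 to 3, over all deposited peaks. Per the methods of the study, cells were first starved in serum-free medium. Each cytokine was then given at 10 ng/ml in serum-free medium for a day, and 4 unstimulated libraries, with no cytokine, serve as the common reference below. The model was a single cell line, and the labels number the replicates without saying whether they were separate cultures. The p-values thus measure a spread between libraries that may be technical, and limma took that spread over 43 libraries of all groups.

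The libraries were chosen by their labels except at a single point. The library labelled IL-6 replicate 4 was left out because its values resembled those of the IL-13 libraries. Over the 5000 most variable peaks, it correlated at Pearson's r = 0.506 with the mean of the 4 IL-13 libraries and at 0.222 with the mean of IL-6 replicates 1 to 3. Replicates 1, 2 and 3 correlated at 0.268, 0.343 and 0.296 with the mean of the other two IL-6 libraries, and at 0.188, 0.378 and 0.293 with the IL-13 mean. The left-out library also held 148.8 Mb of coverage in peaks, and 27.1% of the peaks had no coverage in it. These values chose the members and are given as a description.

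OSM and IL-6 belong to the cytokine family that signals through the shared receptor chain gp130, encoded by IL6ST. OSM binds gp130 together with the OSM receptor or the LIF receptor, which fibroblasts carry, whereas IL-6 first binds the IL-6 receptor, which many stromal cells take up largely in its soluble form. Both lead to JAK kinases and to the transcription factor STAT3, which binds a short palindrome and raises, among others, SOCS3, the inhibitor that closes the feedback loop at gp130.

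The palindrome bound by STAT factors, searched as TTCNNNGAA, recurred in a fixed arrangement in peaks higher with OSM, and a few of these windows are shown because a later result turns on them. Each is 60 bases of hg38, written 5′ to 3′ on the strand that lines it up with the first, and the capitals mark the strings. The first bases of the paired strings lie 21 bases apart in each window.
CXCL17 (chr19:42487298-42487357, plus strand): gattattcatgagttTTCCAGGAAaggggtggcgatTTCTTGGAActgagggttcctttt
BRI3 (chr7:98255473-98255532, minus strand): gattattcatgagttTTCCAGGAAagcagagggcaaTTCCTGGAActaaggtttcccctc
PPP1R15A (chr19:48883258-48883317, minus strand): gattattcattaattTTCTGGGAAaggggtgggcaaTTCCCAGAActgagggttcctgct
CSF1 (chr1:109864312-109864371, plus strand): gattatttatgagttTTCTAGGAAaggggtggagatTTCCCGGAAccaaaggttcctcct

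Library depth overlapped between the cytokines. Coverage in peaks was 538.6, 666.8, 427.3 and 577.6 Mb in OSM replicates 1 to 4 and 426.2, 744.9 and 428.4 Mb in IL-6 replicates 1 to 3 (difference of means 19.4 Mb, exact two-sided permutation p = 0.857, n = 4 and 3). OSM libraries left more peaks with no coverage, at 15.7, 12.7, 17 and 9.64% against 7.53, 2.78 and 9.38% with IL-6 (exact permutation p = 0.0571, the smallest that 4 against 3 libraries allow). The top 1% of peaks held 15.6% ± 0.366 of coverage with OSM and 14.7% ± 0.323 with IL-6 (SD, n = 4 and 3; exact permutation p = 0.114). For the check of the cell type, promoter peaks of 10 fibroblast genes had a median coverage of 8.5 per Mb, against 1.48 for the epithelial genes that had such a peak (2 of 8), 0.738 for the immune genes (4 of 8) and 0.413 for 8 endothelial genes.

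With OSM, chromatin was more open than with IL-6 at peaks in and around SOCS3, FOSB, FOS, THBS1 and NAMPT. Of 407172 tested peaks, 5656 (1.39%) differed, with 3654 (0.897%) higher with OSM and 2002 (0.492%) higher with IL-6 (limma, Benjamini-Hochberg adjusted p under 0.05). The median difference was 0.97 in the first set and -1.12 in the second, on the scale log2(coverage per Mb + 0.5). In 97.2% of the differing peaks the 4 OSM libraries lay wholly above or below the 3 IL-6 libraries, against 14.7% of all tested peaks (4.76% with OSM above and 9.98% with OSM below). In these bulk libraries, a site open in more cells and a site more open in each cell cannot be told apart.

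The share of differing peaks that were higher with OSM was 64.6%. It was 90.4% after a GC correction (8927 higher and 943 lower with OSM) and 84.7% with a composition factor taken over all tested peaks, and it was 51% with library quality weights. With IL-6 replicate 4 kept, 10717 peaks differed, of which 61.5% were higher with OSM, and 4856 of them were among the 5656. The number fell to 2981 without IL-6 replicate 1 and to 3187 without IL-6 replicate 3.

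The direction of the difference varied with coverage. Over the tested peaks as a whole the median log2 difference was -0.17. In 10 equal classes of peaks ordered by coverage, the median went from -0.18 in the lowest class through -0.35 in the fourth to 0.11 in the highest. Calls higher with OSM lay mostly among well-covered peaks, with 2422 of 3654 in the highest class. After a cyclic loess scaling, 3067 peaks were higher with OSM and 2272 with IL-6, of which 2701 and 1660 were called the same way in both fits.

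**Figure D1:**
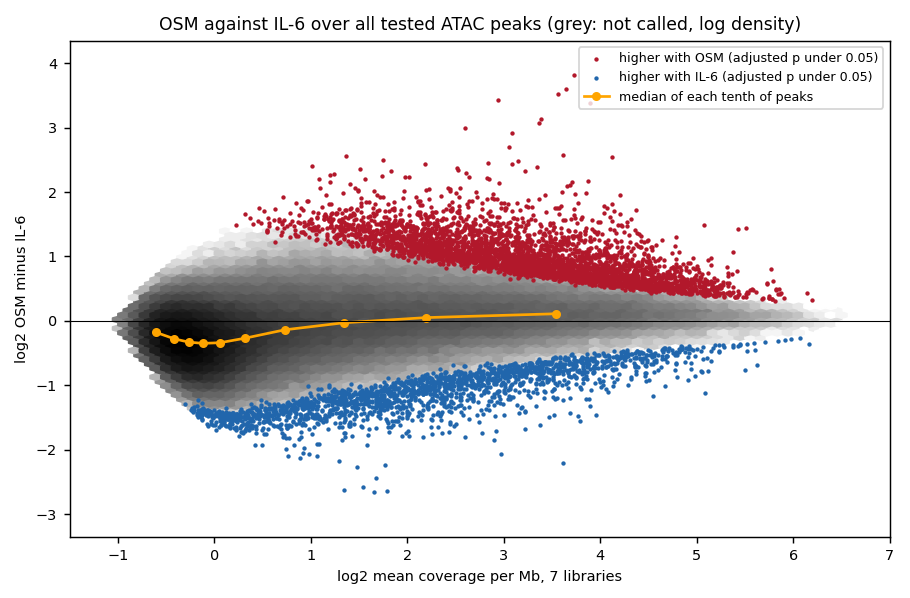
All tested peaks, with log2 mean coverage per Mb over the 7 libraries on the x axis and the log2 difference OSM minus IL-6 on the y axis. Grey hexagons count peaks that were not called on a log scale, red points are the 3654 peaks higher with OSM, blue points the 2002 higher with IL-6, and the orange line joins the median of each of 10 coverage classes, which runs below 0 at low coverage and ends at 0.11.

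Set beside unstimulated cells, the peaks that differed between the cytokines had, at the median, moved with OSM and little with IL-6. These comparisons share libraries with the direct one, so the levels are given side by side only. In the peaks higher with OSM, the median coverage per Mb was 11.5 with OSM, 5.63 with IL-6 and 6.07 without cytokine. In the peaks higher with IL-6, it was 2.46 with OSM, 5.92 with IL-6 and 5.72 without cytokine. OSM against unstimulated gave 14235 called peaks (3.5%), 7725 higher (1.9%) and 6510 lower (1.6%). IL-6 replicates 1 to 3 against unstimulated gave 22 (0.0054%), 14 higher (0.00344%) and 8 lower (0.00196%), with 22105 peaks at an unadjusted p under 0.05.

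The 22 calls for IL-6 were not stable, as none was left after GC correction or without the variance trend and 3 without IL-6 replicate 3, while 436 were made with IL-6 replicate 4 kept. The 14 raised against unstimulated cells included an intronic peak near SOCS1, another feedback inhibitor of JAK kinases, at 22.8 per Mb with IL-6, 22.6 with OSM and 13.4 without cytokine (log2 IL-6 minus unstimulated 0.76, limma adjusted p = 0.015). All 14 had a GC content of 73.4 to 82%, against a mean of 46.7% over all tested peaks, and its part in the calls was not tested beyond that correction. They stood above unstimulated cells by 0.57 to 1.26 with IL-6 and by 0.41 to 1.23 with OSM. None of the 14 was called between OSM and IL-6 by limma, nor had an unadjusted p under 0.05. Of the 8 peaks lowered with IL-6, 6 were higher with OSM than with IL-6, against 0.897% of all tested peaks. The 8 were picked by low values in the same IL-6 libraries, which in itself favours such calls. Of the 6, 5 lay at FOSB, ERCC1 or FOS. In these 5 peaks OSM was also called higher than unstimulated cells.

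Among feedback inhibitors, SOCS3 carried the difference. Named peaks were chosen for the size of the difference and for OSM and IL-6 libraries that do not overlap, so that separation is part of the choice. In the distal peak with the largest difference there (chr17:78354897-78355397), 4930 bases from the start site and beyond the end of the gene, coverage per Mb was 26.2, 27.5, 19.9 and 21.6 in OSM replicates 1 to 4, and 2.36, 1.7 and 1.46 in the IL-6 libraries. Unstimulated libraries read 1.85, 1.2, 1.75 and 2.4. Every OSM library was thus above every IL-6 and unstimulated one, and the latter groups overlapped. The log2 difference was 3.38 ± 0.33 (SE, limma adjusted p = 2.83e-17), and the left-out IL-6 library read 4.39.

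SOCS3 showed many such peaks. Within 50 kb of its start, 23 of 99 tested peaks were higher with OSM by limma and none was lower (32 and 2 at an unadjusted p under 0.05). All 4 tested peaks inside the gene and 6 of the 7 in the 5 kb beyond its end were among the 23, with medians of 1.21 and 2.15. The promoter peak read 26.9, 35.1, 36.3 and 28.2 with OSM against 17.7, 23.3 and 23.2 with IL-6, without overlap. Its difference was smaller, at 0.55 ± 0.14 (SE, limma adjusted p = 0.018), and it kept its call in 17 of 22 alternative fits, with an adjusted p of up to 0.332.

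The other feedback inhibitors held no promoter call between OSM and IL-6. SOCS3 was the sole call among the promoter peaks of the 14 genes of the list, whose median difference was 0.13, against 0.05 over 15367 promoter peaks of coding genes (0.696% called, and 0.579% called higher with OSM). SOCS1 and SOCS2 gave -0.03 and -0.10. The SOCS1 promoter peak is the intronic one described above, and with OSM it was also called above unstimulated cells (0.73, limma adjusted p = 4.02e-05). By the gene in the deposited peak name, 16 of the 271 tested peaks of the list were higher with OSM, 14 of them for SOCS3 and 2 for PTPN2, a phosphatase that acts on JAK kinases (5.9%, against 0.897% of all tested peaks). A single peak, for the adaptor gene SH2B3, was lower. Shares by peak name, here and below, were not matched for coverage. In the highest of the 10 coverage classes, 5.95% of all tested peaks were higher with OSM.

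FOSB and FOS encode subunits of AP-1, a transcription factor that growth factors and cytokines raise within minutes. The largest difference of all named peaks lay between FOSB and its neighbour ERCC1, a DNA repair gene, in an intron of ERCC1 (chr19:45475084-45475584), 5458 bases from a FOSB start site and just past the end of that gene. Coverage per Mb was 21.5, 24.1, 16.4 and 23.8 with OSM, 1.09, 1.17 and 0.877 with IL-6, and 3.87, 4.97, 3.5 and 4.24 without cytokine. The 3 groups did not overlap, with IL-6 the lowest.

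At this peak OSM exceeded IL-6 by 3.82 ± 0.29 (SE, limma adjusted p = 1.24e-28). IL-6 stood below unstimulated cells by a log2 difference of -1.58 (limma adjusted p = 0.009), a call lost with GC correction. The left-out IL-6 library, at 4.55 per Mb, lay among the unstimulated ones. In an exonic FOSB peak (chr19:45472583-45473083) the OSM libraries read 11.6, 14.6, 11.5 and 14.4, the IL-6 libraries 1.82, 1.34 and 0.835, and the left-out one 0.539.

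Both genes were more open with OSM along their bodies. Within 25 kb of the FOSB start 15 of 59 tested peaks were higher with OSM by limma and none lower (22 and 5 at an unadjusted p under 0.05). They included 8 of the 10 peaks inside the gene and 6 of the 8 in the next 5 kb. At FOS, 11 of 73 peaks within 50 kb were higher, among them all 4 inside the gene, and the largest was exonic (chr14:75281401-75281901). It read 20.5, 28.4, 20.1 and 23.2 with OSM and 8.83, 5.37 and 5.25 with IL-6, with the unstimulated libraries between them at 10.9 to 13.4. The difference was 1.78 ± 0.21 (SE, limma adjusted p = 1.72e-12).

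Other AP-1 and C/EBP genes shared this direction in part. Of 14 promoter peaks of these genes, FOSB (0.69, limma adjusted p = 0.00346), FOS (0.57, adjusted p = 0.0231) and JUND (0.47, adjusted p = 0.0445) were higher with OSM, none was lower, and the median was 0.23. FOSB kept its call in 20 of 22 alternative fits and JUND in 10. Against unstimulated cells, the OSM difference was called at JUND (0.51, limma adjusted p = 0.00534). It was not called at FOSB (0.36, adjusted p = 0.159) or FOS (0.31, adjusted p = 0.21). IL-6 stood at -0.33 and -0.25 in the FOSB and FOS promoters, also without a call (adjusted p = 0.906 and 0.95). By peak name, 25 of 354 tested peaks were higher (7.06%, against 0.897% of all), with 10 for FOS, 5 for FOSB, 4 for JUND, 3 for CEBPD, 2 for JUN and 1 for BATF3. CEBPD, a C/EBP factor of the acute phase, also had the 2 lower peaks of the list.

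A wider list of 24 immediate early genes, added after values had been seen, gave 48 of 977 named peaks higher with OSM (4.91%) and 4 lower (0.409%, against 0.492% of all). Of the 22 genes of this list with a named peak, 11 had none higher, among them EGR2, ATF3 and NR4A1. FOS led it, followed by DUSP1, a phosphatase that turns off MAP kinases, with 9 of its 36 peaks, PPP1R15A, a stress gene that restores translation, with 8 of 20, and KLF6 with 7 of 109. At the promoters, 3 of the 24 were called, among them ZFP36, which speeds the decay of cytokine mRNA. ZFP36 read 27.4 to 30.9 with OSM and 18.2 to 23.7 with IL-6, and its difference of 0.48 (limma adjusted p = 0.0496) kept its call in 9 of 22 alternatives.

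THBS1 and NAMPT had the most peaks higher with OSM by deposited name. THBS1 encodes thrombospondin 1, a matrix protein that activates TGF-β. Inside this gene, 25 of 26 tested peaks were higher with OSM, with a median of 1.25, against 1 of 6 in the 5 kb past its end and 2 of 62 elsewhere within 100 kb. Its largest peak (chr15:39595798-39596298, exonic) read 22.8, 19.3, 17.9 and 16.7 with OSM, 4.55, 5.41 and 5.02 with IL-6, and 7.74, 6.8, 7.32 and 5.56 without cytokine. The groups were apart, and the difference was 1.84 ± 0.24 (SE, limma adjusted p = 1.33e-09).

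NAMPT, which makes the precursor of NAD and is also secreted as a cytokine, had 15 of its 45 peaks inside the gene higher with OSM. Their median over all 45 was 1.20. In the intronic peak with the largest difference (chr7:106278057-106278557), OSM libraries read 5.36, 5.26, 3.4 and 4.68 and IL-6 libraries 0.411, 0.197 and 0.653. The unstimulated libraries lay between at 0.48 to 2.94 and overlapped with IL-6. The difference was 2.50 ± 0.35 (SE, limma adjusted p = 1.77e-08). Its size is uncertain, as the IL-6 libraries held at most 3.77 read equivalents there (75 bases of coverage each).

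By deposited peak name, THBS1 had 29 of 132 peaks higher with OSM, NAMPT 18 of 127, SOCS3 14 of 48 and NFKBIZ, a regulator of NF-κB target genes, 8 of 59. None of these genes had a peak higher with IL-6. In the other direction stood PPP1R3C, which targets a phosphatase to glycogen, with 11 of 66 peaks, FBXL18 with 10 of 40 and ZFP36L1, an mRNA decay factor, with 8 of 309. Of 23383 genes in the peak names, 3896 had a differing peak, and 415 had peaks in both directions.

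The remaining peaks named for a rise with OSM were spread over the genome. The CXCL17 peak, which lies in an intron of LIPE-AS1 by GENCODE and holds the first pair of strings shown above, read 9.35, 8.34, 8.71 and 10.4 with OSM and 0.522, 0.957 and 0.685 with IL-6 (3.00 ± 0.37, SE, limma adjusted p = 4.64e-11). An intronic BRI3 peak with another such pair gave 2.46 ± 0.34 (SE, limma adjusted p = 8.35e-09). A peak named for SUPT3H (chr6:45543438-45543938) lies in an intron of RUNX2, the bone lineage factor, and read 5.4, 8.4, 11 and 8.2 with OSM against 1.07, 1.19 and 1.18 with IL-6. In none of these peaks did an OSM library overlap an unstimulated one.

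Peaks near MIR101-2, ABRA, SLC2A5 and CDK20 followed the same pattern, with differences of 2.43 to 2.69. An intronic peak named for THOC1 was also higher with OSM, but its IL-6 libraries held at most 2.73 read equivalents (1 read equivalent being 75 bases of coverage), so no fold is given. Against unstimulated cells, IL-6 was called in the ERCC1 and FOSB peaks of the 12, and lower in both, calls that GC correction removed.

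The 12 named peaks higher with IL-6 than with OSM were each lower with OSM than in unstimulated cells too, with differences of -2.40 to -1.24. The best supported lay near ADRB3, a receptor for catecholamines (chr8:37961956-37962456), at 5.05, 4.08, 4.19 and 3.85 with OSM, 19.9, 19.8 and 25.2 with IL-6 and 20.3, 23.6, 25.2 and 22.2 without cytokine. OSM was apart from both other groups, which overlapped. The difference was -2.21 ± 0.16 (SE, limma adjusted p = 5.85e-30), and the left-out IL-6 library read 17.7.

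Some of these peaks lay above the unstimulated level with IL-6, though none of the 12 was called for IL-6 against unstimulated. In an intron of CLTCL1 named for SLC25A1, the mitochondrial citrate carrier, the IL-6 libraries read 5.9, 4.07 and 8.27, the unstimulated ones 2.63, 2.73, 3.54 and 3.91, and the OSM ones 0.922, 0, 0.709 and 0.743. The IL-6 to unstimulated difference was 0.79 (limma adjusted p = 0.681). IL-6 was not the highest group at this peak, with a median of 5.9 against 12.5 with TNF and 9.33 with IL-17A. Other groups were lower, such as TGF-β1 at 2.54. A PHF2 peak read 2.76, 2.67 and 2.89 with IL-6, 1.5, 1.27, 1.38 and 0.982 without cytokine and 0.0571 to 0.54 with OSM. PHF2 encodes a histone demethylase.

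LOXL1, an enzyme that crosslinks elastin, had a peak in an intron of LOXL1-AS1 at 4.87, 3.49 and 5.46 with IL-6 and 0.364 to 0.646 with OSM (-2.27 ± 0.31, SE, limma adjusted p = 3.62e-09). The other peaks were named for KCNU1, MAP3K1, MIR5739, PDK1, TCEA1, ELAVL2 and PLN, with differences of -2.65 to -2.09, and for DEC1, whose OSM libraries held at most 2.97 read equivalents. At MAP3K1, MIR5739, PLN and PHF2 the OSM libraries held at most 3.68, 4.05, 3.57 and 4.24 read equivalents. The size of the difference is thus uncertain there. All 24 named peaks kept their direction and call in each alternative fit that tested them.

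PPP1R3C had the most such peaks of any gene in the peak names. Within 100 kb of its start, 11 of 64 tested peaks were higher with IL-6 by limma and none with OSM (23 and 0 at an unadjusted p under 0.05), with a median of -0.40. A distal peak 43608 bases downstream (chr10:91589213-91589713) read 3.21, 3.47, 2.29 and 2.4 with OSM, 12.2, 13.1 and 14.8 with IL-6 and 13.8 to 17.3 without cytokine. OSM stood apart, with a difference of -2.06 ± 0.17 (SE, limma adjusted p = 4.07e-24).

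**Figure D2:**
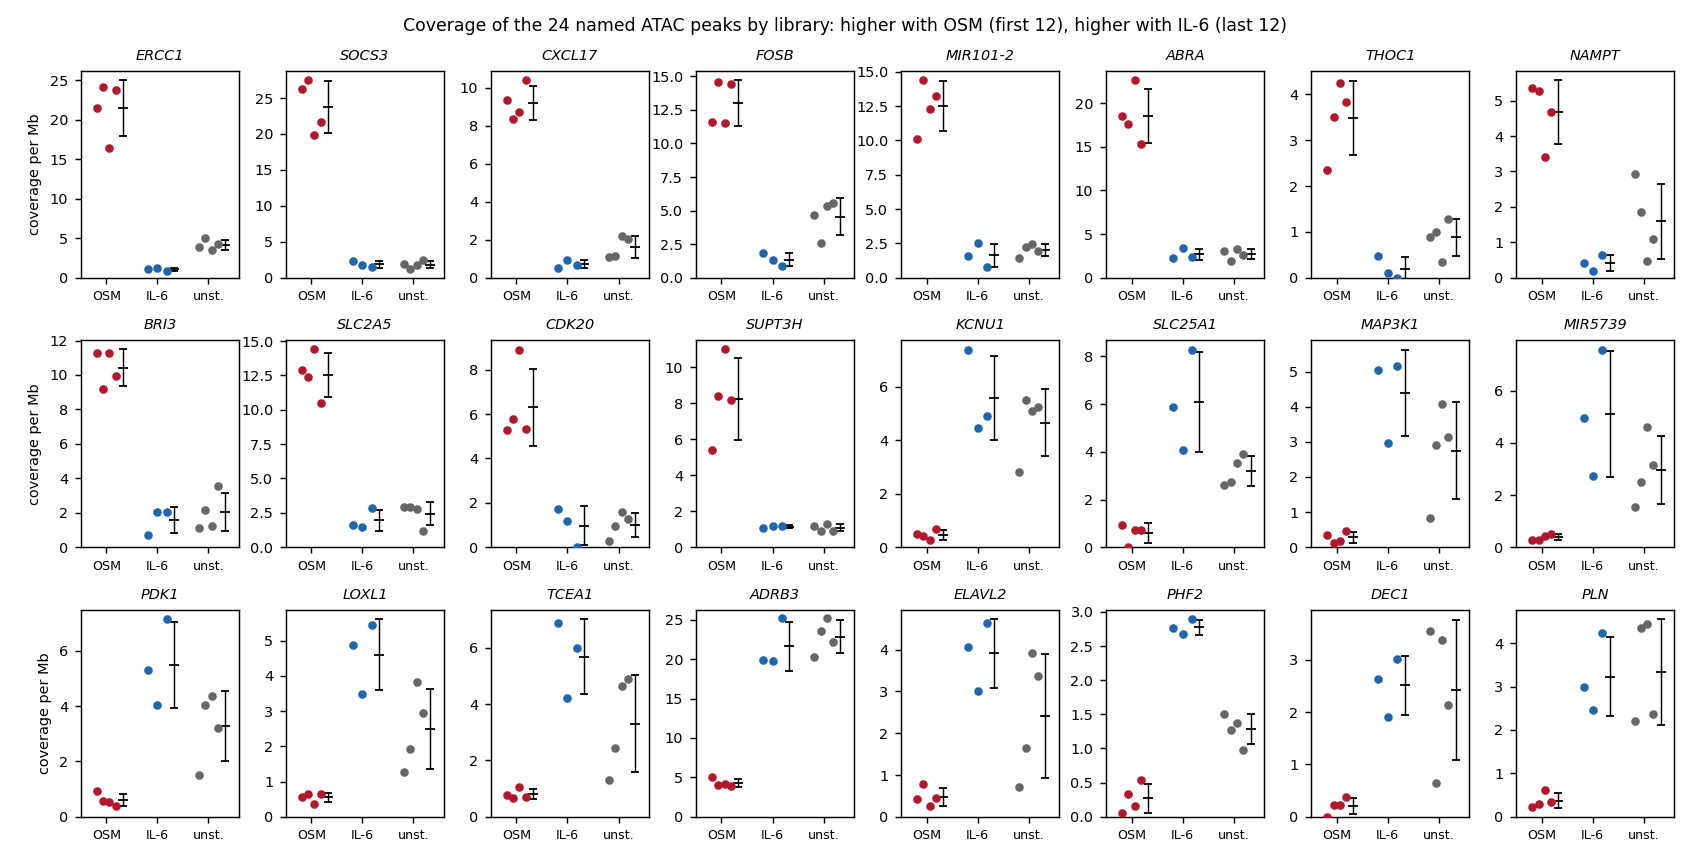
Coverage per Mb (y axis, from 0) of the 24 named peaks in each OSM (red), IL-6 (blue) and unstimulated (grey) library, with the mean and SD beside each group. In the first 12 panels the OSM points lie above the IL-6 points, for example from 16.4 to 24.1 against 0.877 to 1.17 at ERCC1, and in the last 12 they lie below them.

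The receptor genes of the family held no promoter call. None of 8 promoter peaks was called by limma (1 at an unadjusted p under 0.05), and their median was 0.05. A promoter without a call is not shown to be equal with both cytokines. IL6ST read 36.7, 36.1, 40.4 and 36.5 with OSM and 34.1, 30.8 and 27.6 with IL-6, without overlap but also without a call (0.28 ± 0.12, SE, limma adjusted p = 0.293). OSMR (0.03), LIFR (0.11) and IL6R (0.09) had overlapping groups. Against unstimulated cells, OSM was called higher at IL6ST (0.59, limma adjusted p = 2.37e-05) and LIFR (0.73, adjusted p = 0.0316). IL-6 lay above unstimulated cells at both, by 0.31 and 0.62, without a call (adjusted p = 0.756 and 0.764). The other receptor promoters were not called against unstimulated with either cytokine. In the IL-6 libraries the promoter peaks of IL6R and OSMR, of equal length, held 28.5 and 31.7 per Mb, which measures open chromatin and not the amount of receptor. Of 154 peaks named for the receptor genes, 1 of IL6R was higher and 1 of CNTFR lower with OSM.

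Ligands and signal carriers were alike in this. None of the promoter peaks of 9 ligand genes or of 11 JAK and STAT genes was called by limma (2 in each list at an unadjusted p under 0.05), with medians of 0.01 and -0.03. Against unstimulated cells, OSM was called higher at JAK1 (0.60, limma adjusted p = 0.01) and lower at STAT4 (-1.05, adjusted p = 0.0365). IL-6 stood at 0.76 and -0.21 there, without a call (adjusted p = 0.0993 and 0.99). The IL6 promoter itself read 0.802 to 1.84 with OSM and 1.13 to 1.59 with IL-6. Away from promoters, single peaks of LIF and CLCF1, both ligands of gp130 receptors, and of STAT3 and STAT5B were higher with OSM.

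Among STAT3 targets outside the feedback loop, FOS held 10 of the 20 peaks higher with OSM. The promoter peaks of 19 such genes had a median of 0.30, the highest of the lists used here, though FOS alone was called, and in 16 of 22 alternative fits (6 higher at an unadjusted p under 0.05). By peak name, 20 of 591 peaks were higher (3.38%, against 0.897% of all) and 1 lower, with 3 for BCL6, a repressor of transcription, and 1 each for MCL1, IER3, IRF1, PIM1, VEGFA, BCL2L1 and TIMP1. Acute phase genes, which STAT3 raises in liver, were poorly covered here, at a median of 0.622 per Mb over 10 promoter peaks. None of those was called by limma, nor had an unadjusted p under 0.05.

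Chemokine genes went both ways. The promoter of CXCL8, which attracts neutrophils, read 2.4, 1.86, 3.27 and 2.61 with OSM, 0.9, 1.04 and 0.482 with IL-6 and a mean of 2.27 without cytokine. OSM was above IL-6 by 1.22 ± 0.31 (SE, limma adjusted p = 0.012) but was not called against unstimulated (0.13, adjusted p = 0.845). Its call against IL-6 held in 18 of 22 alternative fits. The promoter of CCL11, which attracts eosinophils, read 2.98, 3.51, 3.95 and 3.08 with OSM and 9.29, 6.74 and 10 with IL-6 (-1.23 ± 0.25, SE, limma adjusted p = 0.000296). It was called in all 22 alternative fits. Over the list, 10 of 385 named peaks were higher (2.6%, against 0.897% of all) and 4 lower (1.04%, against 0.492%).

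Matrix and contractile genes had promoter calls in both directions. ADAMTS4, a protease of proteoglycans, had the promoter with the strongest support, at 16.6, 17.1, 24.1 and 18.9 with OSM and 11.3, 12.2 and 10.2 with IL-6 (0.73 ± 0.16, SE, limma adjusted p = 0.00186). TIMP4, a protease inhibitor, was higher by 1.04 (adjusted p = 0.0311). Neither promoter was called for OSM against unstimulated (0.42 and 0.46, limma adjusted p = 0.0971 and 0.359). IL-6 stood below unstimulated cells at both, by -0.31 and -0.59, also without a call (adjusted p = 0.923 and 0.912). ACTA2, the smooth muscle actin of myofibroblasts, had a peak near its start at 16.1, 17.5, 17.7 and 17.1 with OSM and 25.6, 26.7 and 25 with IL-6 (-0.58 ± 0.15, SE, limma adjusted p = 0.0127). Unstimulated libraries averaged 19.5 ± 5.17 (SD, n = 4) there. ACTA2 kept its call in 15 of 22 alternatives and TIMP4 in 16.

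Among the 20 genes of collagen and contraction, ACTA2 was the sole promoter call, and 7 of 859 named peaks were higher (0.815%, against 0.897% of all) and 8 lower (0.931%, against 0.492%). That is 1 of 20 promoters lower, against 0.117% of all promoters of coding genes, and for proteases and inhibitors 2 of 15 were higher, against 0.579%. For the proteases and their inhibitors the count was 6 each way among 648 (0.926% each), with TIMP3 giving 3 of the lower ones. No promoter was called among 20 interferon response genes (median 0.05), 17 regulators of inflammatory fibroblasts (0.08), 8 type 2 response genes (0.05) or 10 fibroblast markers (-0.08). At an unadjusted limma p under 0.05 there were 5, 1, 1 and 0 such promoters.

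Among peaks with paired STAT strings, those with first bases 21 bases apart gave the most calls higher with OSM, mostly in related sequences. This arrangement was noticed in the named peaks and then counted over all peaks, so the counts are a description. The windows of CXCL17, BRI3, SLC2A5 and CDK20, aligned in pairs on the better strand, were 70.9 to 80.2% identical, so they are related sequences. The CXCL17 and BRI3 windows held 2 STAT strings, whereas those of SLC2A5 and CDK20 held only 1. Across the genome, 224 tested peaks held TTCNNNGAA strings with first bases 21 bases apart. At each other distance from 9 to 60 bases there were at most 62 such peaks.

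Of these 224 peaks, 33 (14.7%) were higher with OSM by limma and none was lower (61 higher and 6 lower at an unadjusted p under 0.05). With strings at another of those distances, 41 of 1934 (2.12%) were higher, among them 5 of 29 at 59 bases and 6 of 62 at 20 bases, with strings but no such pair 865 of 67721 (1.28%), and with no string 2715 of 337293 (0.805%). The number of paired peaks higher with OSM lay between 23 and 55 over the alternative fits. Of the 224, 169 aligned to a CXCL17, BRI3, SLC2A5 or CDK20 window at least as well as those did to each other. Of these 169, 31 (18.3%) were higher with OSM, against 2 (3.64%) of the other 55. How reads that match several related copies were placed is not given in the sources used here, and its part in these values was not tested.

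The genes nearest to the paired peaks higher with OSM were varied. CSF1, the growth factor of macrophages, had a paired peak at 7.14 per Mb with OSM, 2.68 with IL-6 and 2.72 without cytokine (means of 4, 3 and 4 libraries). PPP1R15A had 2 such peaks, at 11.4, 2.88 and 4.14 and at 2.86, 0.815 and 1.49 in the same order.

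**Figure D3:**
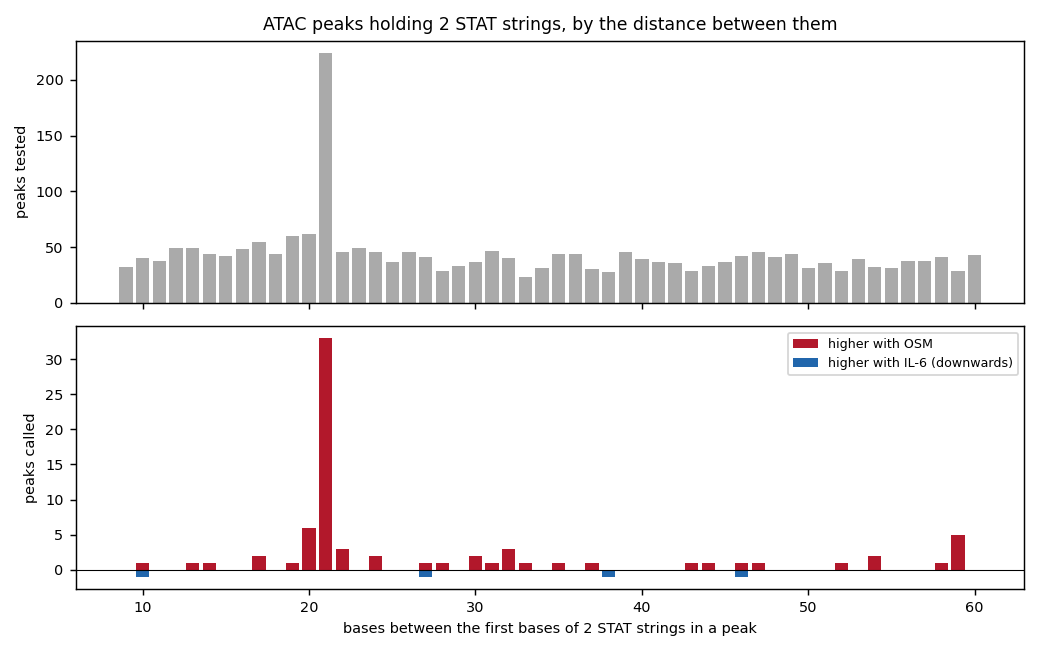
Tested peaks that hold paired STAT strings (upper panel, number of peaks) and those called (lower panel, higher with OSM upwards and higher with IL-6 downwards), by the number of bases between the first bases of the strings. At 21 bases there were 224 peaks, of which 33 were higher with OSM, and at any other distance at most 62, of which at most 6 were.

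OSM was not the sole cytokine with high coverage at the paired peaks. Summed over the 33, coverage per Mb was 339 to 372 in the OSM libraries, 144 to 157 with IL-6 and 148 to 169 without cytokine. It was 348 to 371 in the 4 interferon-γ libraries, which overlapped with OSM, and 194 to 217 with IL-13. Over the 191 paired peaks that the comparison did not call, interferon-γ libraries summed to 362 to 381, above OSM at 243 to 261, IL-6 at 201 to 205 and unstimulated cells at 202 to 225. The OSM and IL-6 values made this split into called and uncalled peaks, so the standing of OSM in either set is partly fixed by it.

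By contrast, the ERCC1 and SOCS3 peaks were high with OSM only among the 11 groups. At ERCC1 the OSM libraries began at 16.4 per Mb, and the highest library of any other group was at 6.39, with TGF-β1. At SOCS3 they began at 19.9, and the highest other library was at 4.39, with interferon-γ. At CXCL17, OSM (8.34 to 10.4) and interferon-γ (7.12 to 8.55) overlapped.

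**Figure D4:**
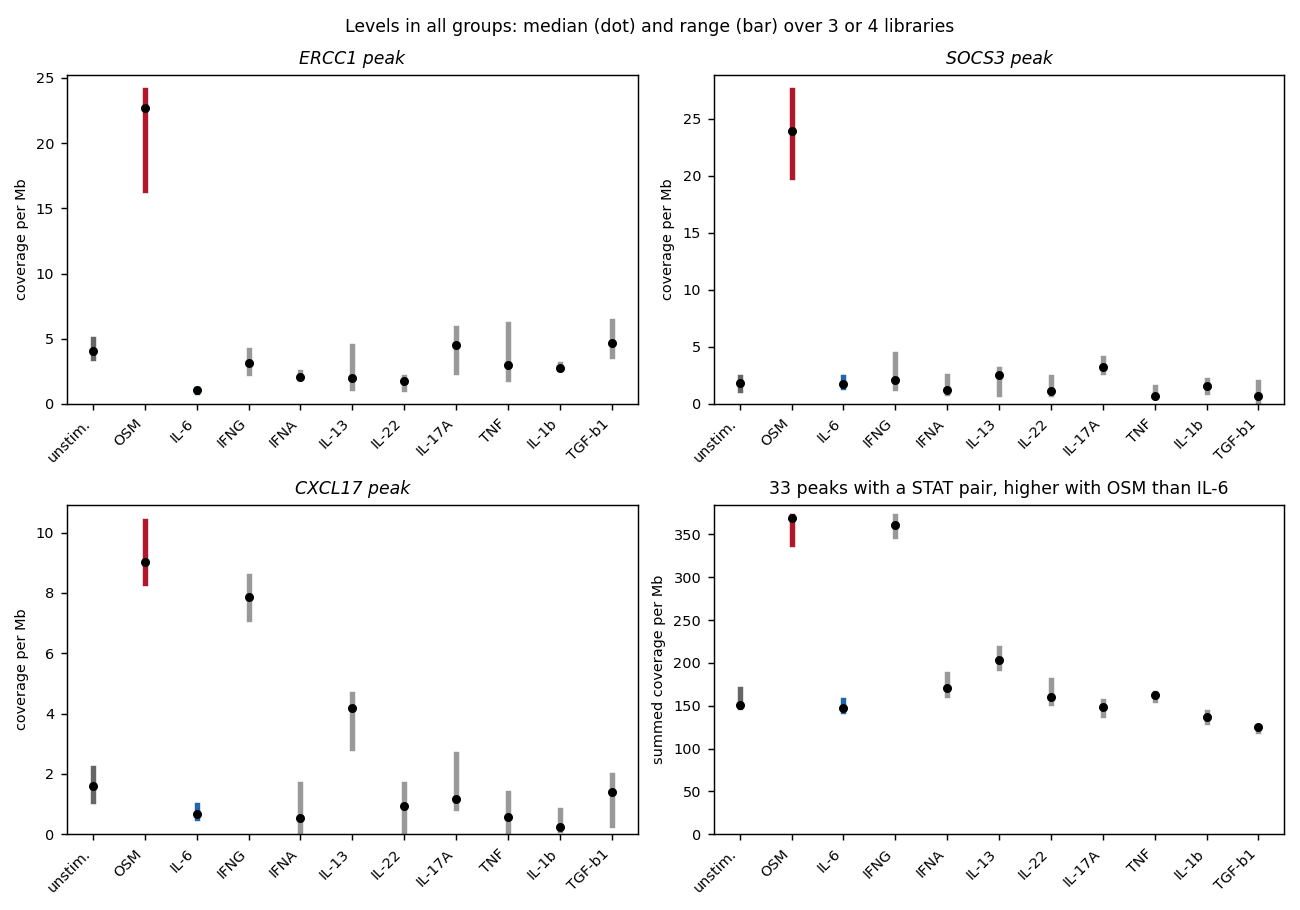
Coverage per Mb (y axis, from 0) in all 11 groups (x axis) at the ERCC1, SOCS3 and CXCL17 peaks and summed over the 33 peaks with a STAT pair that were higher with OSM than with IL-6. Dots are medians and bars the range over 3 or 4 libraries, with OSM in red, IL-6 in blue and unstimulated in dark grey. OSM stands alone at ERCC1 and SOCS3, and interferon-γ reaches 348 to 371 beside it in the sum.

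The peaks of either direction differed in what else they held. Of the peaks higher with OSM, 51.3% held the AP-1 string (TGANTCA), against 22% of those higher with IL-6 (27% after cyclic loess scaling) and 25.7% of all tested peaks. The RUNX string (TGTGGTT) was in 25, 9.19 and 10.9%, and the STAT string in 25.7, 13.1 and 17.2%. The TEAD string (GGAATG) was in 33.6, 36.3 and 28.7%, the highest share being with IL-6. Strings were searched on both strands, and a match is a description of the letters and not of a bound factor.

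Well-covered peaks hold more AP-1 strings in any case, so the shares were also taken within the highest of the 10 coverage classes. There, 13.3% of peaks with the RUNX string were higher with OSM against 5.06% of those without it. The shares were 10.2 and 5.23% for the STAT string and 9.5 and 4.16% for the AP-1 string. Smaller excesses were seen for other strings, among them C/EBP (TTGNNCAA, 9.24 and 5.5%) and TEAD (7.09 and 5.46%). The NF-κB string (GGGRNWYYCC, 5.41 and 6%) and the strings searched for ETS, SMAD and CTCF showed none. Promoter-class peaks made up 5.04% of the peaks higher with OSM and 2.5% of those higher with IL-6, against 7.15% of all tested peaks and 24.4% of the highest coverage class. The mean GC content was 44% for the first set and 46.7% for the second and for all tested peaks. It was 53.7% for the highest coverage class. In that class the median log2 difference was 0.31 for peaks of up to 35% GC and 0.08 for those over 65%. The shares by string were not matched for GC content or peak class, and the part of these was not tested.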

How the data were processed

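ATAC-seq libraries of Ccd18-Co cells were processed by the authors with the ENCODE ATAC-seq pipeline on hg38, and MACS2 is named per the labels. What the authors deposited is a signal, the coverage by reads added up within each of 407383 peaks, without scaling for depth. Every peak spans 500 bases. The study describes peaks of that fixed width, made with MACS2 and ArchR, for its single-cell data, and whether the bulk matrix uses them is not given in the sources used here. Whole-read coverage is broader than the transposase cut site.

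Because the values are coverage, limma 3.58.1 in R 4.3.3 was used in place of the count model of the study. Coverage per Mb of library total was divided by a composition factor, 0.5 was added and log2 was taken, which understates the change of low peaks. The factor was a trimmed mean of log ratios (30% of ratios and 5% of means from each end) over the 158381 peaks covered in all libraries. A first version took all tested peaks, and it was replaced after its counts had been seen, so both are given. Peaks with a log2 mean at or under -3 were left out. The model held 43 libraries, all but IL-6 replicate 4, with group as the only term, a mean-variance trend and Benjamini-Hochberg adjustment over the 407172 tested peaks. A differing or called peak had an adjusted p under 0.05, and unadjusted p-values come from the same fit. Single values per library were compared by exact permutation. The script was tested on simulated data.

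Named peaks were the 12 per direction with the largest difference among called peaks with a mean of at least 1 per Mb and no overlap between OSM and IL-6 libraries, 1 per gene name. For listed genes the tested peak nearest to a GENCODE v44 start site within 1 kb was taken as the promoter peak, and calls there are named. Peaks named at the SOCS3, FOS, THBS1 and PPP1R3C loci, at paired STAT strings (with the windows shown) and for IL-6 against unstimulated were picked after their values were seen. The members and lists were chosen with earlier results of these data known. Peak genes and classes are those of the deposited names. Coverage has no molecular identifiers, so read equivalents cover counting error only.

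Alternatives changed the scaling, the added constant, the filter, the libraries fitted, the weights, the variance trend and the replicate block. Same-numbered libraries did not deviate together (correlations of deviations from group means -0.0133 to 0.0185 over all pairs of OSM, IL-6 and unstimulated libraries from different groups). Some items are not reported here.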

Additional observations from a re-analysis of the deposited data

Results flagged for a closer look

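Of 74 groups of 4 libraries examined for a library far from the others, 3 were picked out, and chance alone picks about 1 in 20. In the SLC2A5 peak, unstimulated replicate 4 read 1.17 per Mb, with the other three at 2.81, 2.9 and 2.92. In the CDK20 peak, OSM replicate 3 read 8.89 per Mb, with the others at 5.28, 5.32 and 5.77. In the KCNU1 peak, unstimulated replicate 1 read 2.8 per Mb, with the others at 5.09, 5.23 and 5.49. Each was chosen for its gap to the nearest library, and no cause was tested.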

How the results depend on the processing

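Of 747 refits of named and promoter peaks 691 kept their call, 56 lost it and none turned. The lost calls were all at promoters, ZFP36 and JUND most often. The count of 5656 differing peaks became 9870 with GC correction, 17261 with only the compared libraries fitted, 10717 with IL-6 replicate 4 kept, 15898 with library quality weights, 2045 without the variance trend and 9721 with the factor over all tested peaks, an alternative added after seeing the data. Without a single OSM or IL-6 library it was 2981 (IL-6 replicate 1) to 4787, and 3187 without IL-6 replicate 3. The share higher with OSM (64.6%) was 62.7% with library totals, 63.1% with the median of ratios, 57.4% with cyclic loess, 90.4% with GC correction, 60.4% and 69.4% with 0.1 and 2 added, 66.1% with a mean of at least 1 per Mb, 71.7% with only the compared libraries, 61.5% with IL-6 replicate 4 kept, 63% with vooma weights, 51% with quality weights, 61.5% without the trend, 84.7% with the factor over all tested peaks and 63.7 to 69.2% without an OSM or IL-6 library. For OSM against unstimulated, the 14235 calls became 26427 with only the compared libraries, 25740 with quality weights, 8074 without the trend, 24214 with the factor over all tested peaks and 8792 to 11695 without a library of either group (9019, 8792 and 9391 without OSM replicates 1, 2 and 3). For IL-6 against unstimulated, the 22 became 0 with GC correction (limma, 21031 at an unadjusted p under 0.05), 13 with 0.1 added, 97 with only the compared libraries, 436 with IL-6 replicate 4 kept, 146 with quality weights, 0 without the trend (21260 at an unadjusted p under 0.05) and 3 to 28 without a library of either group (11 and 6 without unstimulated replicates 3 and 4, and 8, 6 and 3 without IL-6 replicates 1, 2 and 3). The cause of these moves was not tested, apart from fewer libraries where they were left out. The difference in total coverage, 19.4 Mb and not called, ranged from -34.1 to 125 Mb without a library and turned without OSM replicate 2 (-18.7), IL-6 replicate 1 (-34.1) or IL-6 replicate 3 (-33). With a log2 difference of at least 1, shares in peaks higher with OSM were 2.95% for the promoter class, 47.3% AP-1, 28.4% STAT, 28.7% RUNX and 31.4% TEAD, and in those higher with IL-6 17.5% AP-1 and 33% TEAD. With cyclic loess they were 3.72% promoter, 49.1% AP-1 and 31.9% TEAD with OSM, and 3.7% promoter and 27% AP-1 with IL-6. The replicate block gave 5900 differing peaks, and the replicate numbers did not pair the libraries. Depth was close (means of 553 Mb with OSM and 533 Mb with IL-6), while 13.8 and 6.56% of peaks had no coverage, the cause of which was not tested.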
